A study of Mus musculus with 25 samples.

Results

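The replication-dependent histone genes were read from bulk RNA sequencing of sorted mouse group 1 innate lymphoid cells (ILCs), the family that holds natural killer (NK) cells and ILC1s. A gene was taken as a member if GENCODE vM21 lists it as protein coding under a symbol that starts with Hist1h, Hist2h, Hist3h or Hist4h. The annotation holds 67 such genes. Of these, 65 were in the count table of 46078 genes, and Hist1h2bm and Hist1h2bh were not analysed here. By class, 6 of the 65 code for H1, 18 for H2A, 16 for H2B, 12 for H3 and 13 for H4.

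There were 25 libraries in 8 groups, all from wild type C57BL/6 mice, and no group was treated. The fetal group, FL G1-ILCs (4 libraries), was sorted from liver at embryonic day E18.5 as cells with intermediate CD49a and CD49b. The 7 adult groups were 8 weeks old. From adult liver (AL) came AL 7R- ILC1s (4 libraries) and AL 7R+ ILC1s (3), which carry CD49a and little CD49b and differ in the IL-7 receptor, and AL NK cells (2), which lack CD49a and carry CD49b. From bone marrow (BM) came BM iILC1s (3), immature cells in the CD49a gate of the liver ILC1s, and BM NK cells (3). LPL ILC1s (4) were CD27+ IL-7R+ cells of the small intestinal lamina propria, and SG G1-ILCs (2) were CD49a+ CD49b+ cells of the salivary glands. Every gate also asked for NK1.1 and NKp46 without CD3, and the labels give 2000 sorted cells per population. The study describes its libraries as biological replicates, and the labels do not tie them to single mice, so the p-values speak of the spread between these libraries. Library totals ran from 2302643 to 7995906 counts. FL G1-ILCs replicates 2 and 3 differed by little more than counting noise (chi-square per degree of freedom 1.18, against 3.5 to 12.4 in the other 28 pairs of replicates). Although described as biological replicates, these 2 libraries were counted as 1 sample, which leaves 3 fetal samples and 24 in all. Levels are given as CPM, a gene's counts relative to the total of its library, scaled by TMM so that libraries share a common scale. A gene was called when its adjusted p in edgeR's quasi-likelihood test, over 14123 tested genes, was under 0.05.

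Histones are the proteins that DNA is wound around. H2A, H2B, H3 and H4 form the core of the nucleosome, and H1 binds the DNA between nucleosomes. A dividing cell must make a full new set while it copies its DNA, and the replication-dependent genes, which lie in clusters and mostly lack introns, serve that need in S phase. Their mRNAs are the only known animal mRNAs that normally end without a poly(A) tail. They end shortly after a stem-loop that is bound by SLBP. Some members, Hist1h1c, Hist1h2bc, Hist1h2be and Hist2h2be among them, are also known to give longer, polyadenylated mRNAs in cells that have left the cell cycle. The cDNA of these libraries was primed at poly(A), so a count reflects both how much of a histone mRNA a cell holds and how far it could be primed, and the data cannot tell these apart. In bulk samples, fewer cells of a kind and less RNA per cell cannot be told apart either.

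A stem-loop of 6 paired bases around a loop of 4 was found in annotated transcripts of 44 of the 67 members, in 6 sequence variants. The most frequent was in 26 members, and the next ones in 7, 6, 2, 2 and 1. The lines below show it, with up to 5 flanking bases on each side, in members that the results turn on. They are in the sense of the mRNA, from GENCODE vM21 on the mm10 build, and the capitals mark the stem-loop.

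Hist1h2ae: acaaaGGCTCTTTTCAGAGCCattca
Hist1h2ag: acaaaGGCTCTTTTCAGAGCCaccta
Hist1h2ap: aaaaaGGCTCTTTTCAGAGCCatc
Hist1h2bj: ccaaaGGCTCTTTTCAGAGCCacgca
Hist1h1c: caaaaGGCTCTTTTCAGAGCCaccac
Hist1h4c: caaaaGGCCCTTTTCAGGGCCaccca
Hist1h4n: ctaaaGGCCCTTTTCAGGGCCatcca
Hist2h4: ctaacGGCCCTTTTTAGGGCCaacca
Hist2h2ac: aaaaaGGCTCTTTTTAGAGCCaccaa
Hist3h2a: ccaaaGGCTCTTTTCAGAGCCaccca

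Hist1h2ae, Hist1h2ag, Hist1h2ap, Hist1h2bj, Hist1h1c and Hist3h2a share the same 16 bases, although their levels followed different patterns across the groups (below). What differed among them in the annotation was the length that follows. The longest annotated transcript went on for 3 bases after the stem-loop in Hist1h2ap, 23 in Hist1h2ag and Hist1h2bj and 151 in Hist1h2ae, but for 840 in Hist1h1c and 1643 in Hist3h2a. It went on for 1257 bases in Hist2h4, 454 in Hist1h4c and 31 in Hist1h4n. No stem-loop of this form was found in the annotated transcripts of Hist1h1b, Hist1h2bc and Hist2h2be.

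Most members were detected at low counts. Of the 65, 14 had at least 1 count in all 25 libraries, and 5 (Hist2h2aa1, Hist2h2aa2, Hist2h2bb, Hist2h3b and Hist2h3c1) had none in any, out of 118541251 counts. Those 5 lack any 100-base window that is unique among annotated transcripts, and other annotated genes cover all of their exon bases. Their reads may not have been assigned to them, so the lack of counts sets no upper limit on their level. Per library, the members with at least 1 count numbered 42 to 53 in FL G1-ILCs, 44 to 51 in LPL ILC1s, 41 to 47 in SG G1-ILCs, 40 to 48 in BM NK cells and 38 to 45 in AL NK cells. They numbered 34 to 43 in AL 7R+ ILC1s and 33 to 37 in both AL 7R- ILC1s and BM iILC1s. FL G1-ILCs thus had many members detected, although the share of all genes detected, at 36.4% to 42.7%, was below that of every other group except BM NK cells and SG G1-ILCs, whose ranges overlapped it. The library with the smallest total was fetal, so the counts were also taken to its depth by the expected number of members that keep at least 1 count. At that depth the fetal libraries held 42.0 to 48.3 members, LPL ILC1s 36.9 to 44.2 and SG G1-ILCs 38.7 to 41.3, against 27.0 to 32.5 in the libraries of BM iILC1s and of both liver ILC1 groups. BM NK cells held 33.4 to 39.0 and AL NK cells 32.8 to 36.9, which overlapped each other. As deposited, the share of all genes detected was 52.0% to 62.6% in LPL ILC1s and 42.4% to 48.6% in SG G1-ILCs. It was 48.1% to 49.1% in AL 7R- ILC1s, 43.8% to 57.5% in AL 7R+ ILC1s and 46.1% to 53.3% in BM iILC1s. The many members detected in LPL ILC1s thus went with a high share of all genes.

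**Figure D1:**
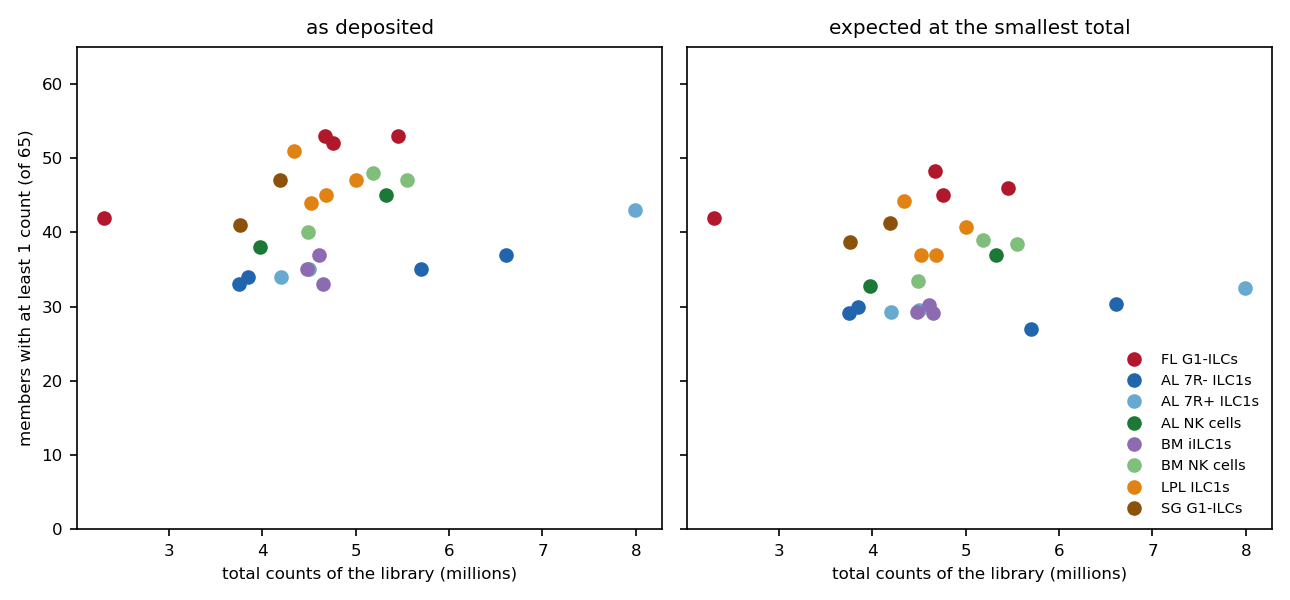
Members with at least 1 count in each library (vertical axis, of 65) against the library's total counts (horizontal axis), as deposited on the left and as the number that remains on average at the smallest total, 2302643 counts, on the right. Each point is a library and its colour the group. At the smallest total the 4 fetal libraries lie at 42.0 to 48.3 members and those of AL 7R- ILC1s at 27.0 to 30.3.

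The filter on low counts (filterByExpr with a minimum count of 10) kept 29 members: 4 of H1, 8 of H2A, 7 of H2B, 2 of H3 and 8 of H4. The 36 others were detected in a median of 12 libraries and had a median of 39.3% unique 100-base windows, against 24 libraries and 74.6% for those kept. Near-identical copies share reads, and how the authors' counting treated such reads is not stated, so a value of a member with few unique windows, among the H2A genes above all, is uncertain. A member that passed the filter only because it was high in some groups had to differ between groups, so the counts of calls among the 29 are a description.

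The summed level of all 65 members differed between the groups. It was 640.0 ± 70.6 CPM (SD, n = 4) in LPL ILC1s, 406 ± 63.1 (n = 2) in SG G1-ILCs and 368 ± 36.3 (n = 3) in FL G1-ILCs. The samples of SG G1-ILCs, at 361 and 451 CPM, overlapped those of FL G1-ILCs, at 342 to 409. The 5 other groups were lower. AL 7R- ILC1s stood at 128 ± 13.4 CPM (n = 4) and BM NK cells at 128 ± 25.4 (n = 3). AL NK cells stood at 119.8 ± 18.1 (n = 2), AL 7R+ ILC1s at 103 ± 12.3 (n = 3) and BM iILC1s at 81.3 ± 8.39 (n = 3). Neighbours in that order overlapped, except that BM iILC1s, at most 86.8, lay below AL 7R+ ILC1s, at least 94.2. Scaled by library totals alone, the sum in LPL ILC1s was 499 CPM, still above every other group.

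The classes that made up these sums differed. H1 genes held 74.5% of the sum in LPL ILC1s and 56.8% in SG G1-ILCs, and Hist1h1c alone held 52.0% and 43.2%. In FL G1-ILCs H1 held 36.4% and H2A 33.1%, and no single gene held more than the 15.1% of Hist1h1b. H2A stood at 122 ± 17.8 CPM (SD, n = 3) in FL G1-ILCs against 27.5 ± 4.72 (n = 4) in LPL ILC1s, 40.4 ± 0.306 (n = 2) in SG G1-ILCs and 38.0 ± 12.9 (n = 3) in BM NK cells. H4 showed the other order, at 27.4 ± 2.80 CPM in FL G1-ILCs, 95.6 ± 11.4 in LPL ILC1s and 60.4 ± 0.349 in SG G1-ILCs. In AL 7R- ILC1s the largest class was H2B, with 38.2% of the sum. H3 was the smallest class in every group, at 14.3 ± 2.44 CPM in FL G1-ILCs and at most 8.95 on average elsewhere, and its 2 tested members, Hist1h3a and Hist1h3e, both had group means under 5 CPM.

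**Figure D2:**
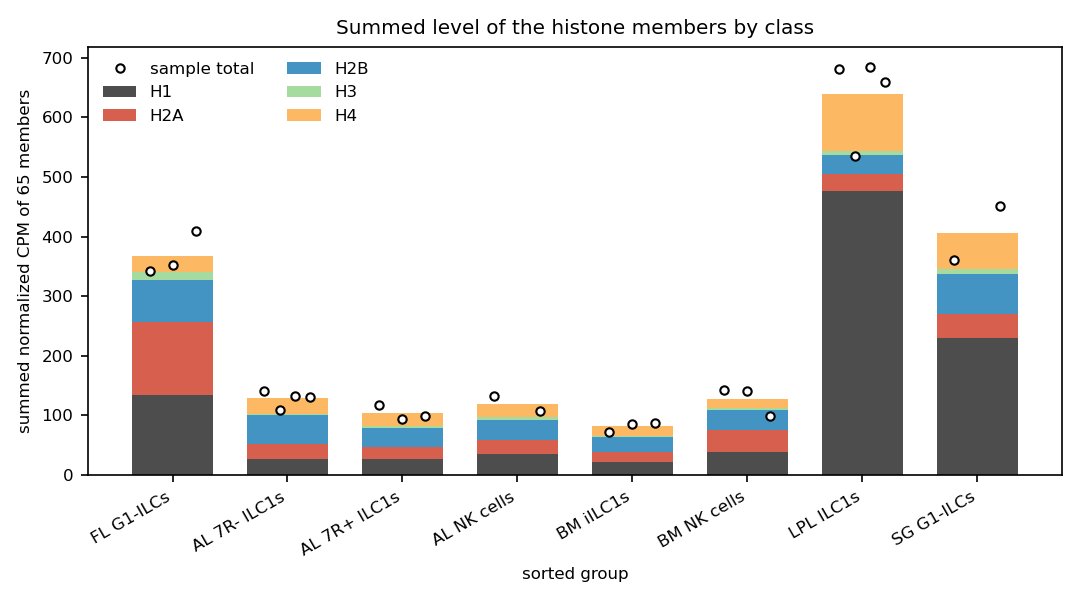
Summed normalized CPM of the 65 members (vertical axis) in the 8 sorted groups (horizontal axis), as stacked bars of the class means, with open circles for the total of each sample. The H1 part is the largest in LPL ILC1s (477 CPM) and SG G1-ILCs (230.4 CPM), and the H2A part is larger in FL G1-ILCs (122 CPM) than in any adult group.

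Across all 8 groups, 28 of the 29 tested members were called for any difference, beside 77.7% of all genes tested, and the exception was Hist1h2bg. Among the 7 adult groups alone, 25 were called, beside 69.5% of all genes. The mean level was highest in FL G1-ILCs for 12 members, in LPL ILC1s for 9, in SG G1-ILCs for 6 and in AL 7R- ILC1s for 2 (Hist1h2be and Hist2h2be), and in none was it highest in AL 7R+ ILC1s, AL NK cells, BM iILC1s or BM NK cells.

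**Figure D3:**
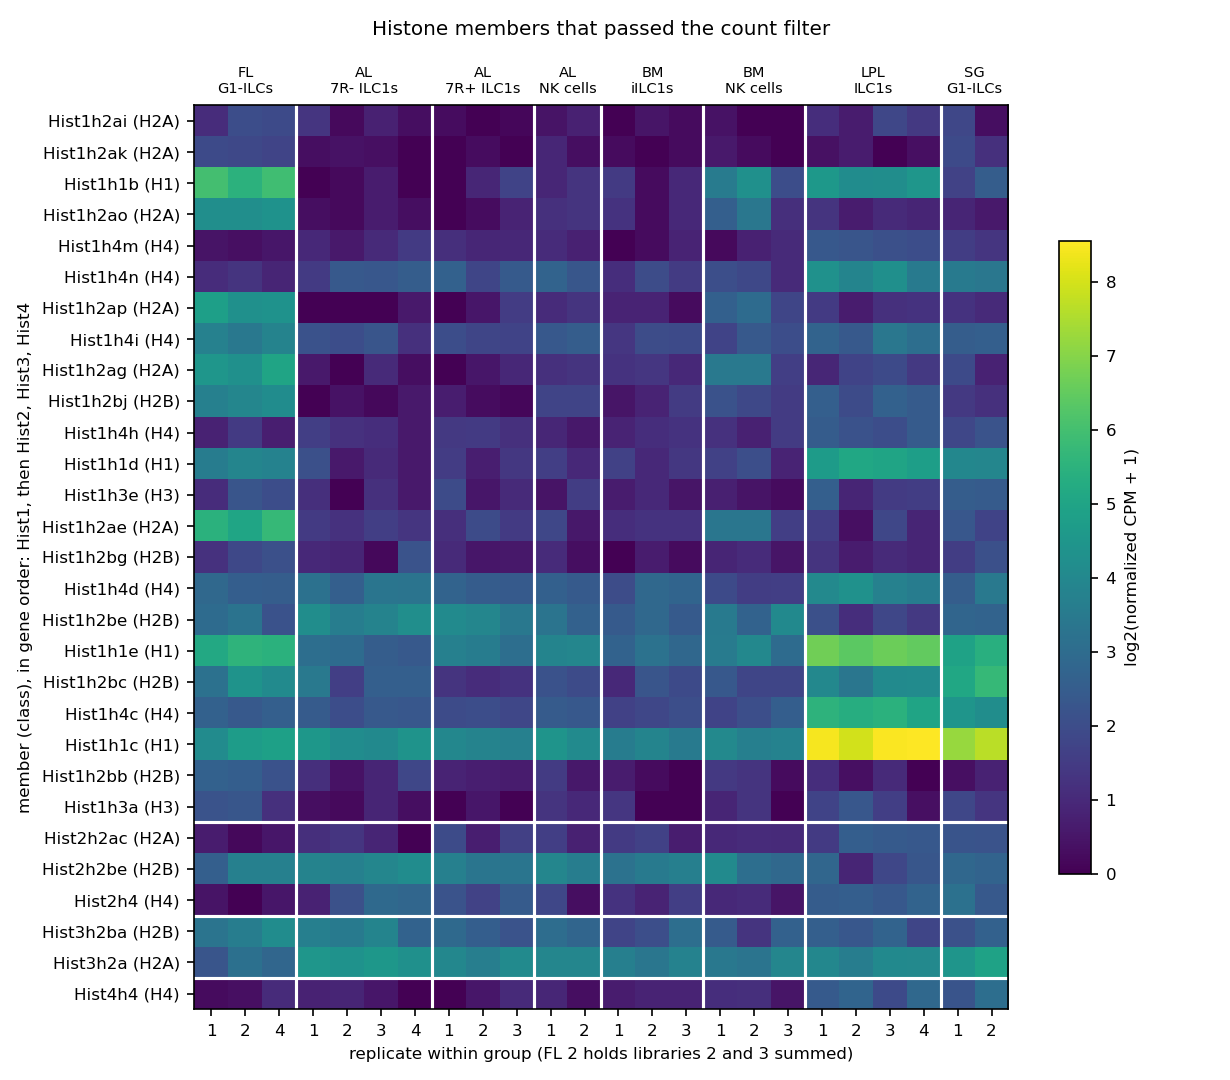
Level of the 29 tested members (vertical axis, with their class, in gene order) in each of the 24 samples (horizontal axis, by group), as log2(normalized CPM + 1) in colour. Hist1h1b, Hist1h2ae, Hist1h2ag, Hist1h2ao, Hist1h2ap and Hist1h2bj are brightest in the 3 fetal samples, and Hist1h1c in LPL ILC1s and SG G1-ILCs.

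The first comparisons set FL G1-ILCs against each adult group, to ask how fetal and adult cells of this family differ. Against AL 7R- ILC1s, 13 members were higher and 4 lower in FL G1-ILCs, beside 22.4% of all genes higher and 20.1% lower, with a median log2 fold change of 1.45 over the 29 members and -0.06 over all genes. Against AL 7R+ ILC1s, 16 were higher and 5 lower (21.2% and 18.9% of all genes), with a median of 1.88. Against AL NK cells, 10 were higher and 2 lower (19.8% and 16.6%), with a median of 1.26. The count of higher members in these comparisons was above the share of all genes called higher, and that of lower members was near or below it.

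Against BM NK cells, 16 members were higher and 1 lower in FL G1-ILCs (19.4% and 14.3% of all genes), with a median of 1.71. Against BM iILC1s, 17 were higher and 2 lower (20.9% and 18.8%), with a median of 2.28. The pattern was different against the other tissues: 11 were higher and 12 lower against LPL ILC1s (31.8% and 27.1%), with a median of 0.45, and 9 higher and 9 lower against SG G1-ILCs (21.9% and 20.9%), with a median of 0.15. These 7 comparisons share the fetal samples, so their counts are not independent of each other.

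Hist1h1b, Hist1h2ae, Hist1h2ag, Hist1h2ao, Hist1h2ap and Hist1h2bj were higher in FL G1-ILCs than in all 7 adult groups. They are 1 linker histone gene, 4 H2A genes and 1 H2B gene. The share of all genes called higher in all 7 is not given here, so their number is a description. Of the other tested members, Hist1h4i, an H4 gene, was higher than in 6 of the 7 and had a log2 fold change of 0.83 (SE 0.37, adjusted p = 0.0550) against LPL ILC1s. Without either library of AL NK cells (adjusted p = 0.139 and 0.0789) or of SG G1-ILCs (0.141 and 0.123), the call of Hist1h4i against that group was lost. Only Hist3h2a was lower in FL G1-ILCs than in all 7.

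Hist1h1b (chr13:21779883-21780625, minus strand, a single exon) was at 63.1, 44.1 and 59.8 CPM in FL G1-ILCs. It was at 0, 0.169, 0.579 and 0 in AL 7R- ILC1s, at 0, 0.883 and 2.30 in AL 7R+ ILC1s, at 0.902 and 1.44 in AL NK cells and at 1.77, 0.196 and 0.998 in BM iILC1s. It was at 10.8, 18.8 and 3.04 in BM NK cells, at 22.7, 16.9, 17.3 and 21.6 in LPL ILC1s and at 2.26 and 4.80 in SG G1-ILCs. No adult sample reached the fetal range, and the adult groups themselves were spread out, with LPL ILC1s and BM NK cells above the adult liver groups. The log2 fold change of FL G1-ILCs was 7.75 (SE 0.71, adjusted p = 1.60e-09) against AL 7R- ILC1s, 2.34 (0.53, 0.00100) against BM NK cells and 1.5 (0.47, 0.00784) against LPL ILC1s.

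Among the H2A genes, Hist1h2ae (chr13:23570517-23571220, minus strand) was at 43.4, 31.8 and 52.2 CPM in FL G1-ILCs, at 9.34, 9.38 and 2.02 in BM NK cells and at 0.287 to 3.95 in the samples of the other 6 groups. Its log2 fold changes ran from 2.60 (SE 0.49, adjusted p = 0.000151) against BM NK cells to 4.98 (0.58, 1.21e-07) against BM iILC1s, and against LPL ILC1s it was 4.86 (0.52, 1.27e-08). Unlike Hist1h1b, this gene was as low in LPL ILC1s as in the adult liver.

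Hist1h2ag was at 21.5, 18.7 and 30.9 CPM in FL G1-ILCs, at 10, 9.92 and 2.02 in BM NK cells and at 0.497, 0, 1.01 and 0.251 in AL 7R- ILC1s. Hist1h2ao was at 17.8, 17.9 and 19.8 CPM in FL G1-ILCs and at 5.0, 9.56 and 1.21 in BM NK cells. Hist1h2ap was at 27.5 and 19.8 CPM in FL G1-ILCs replicates 1 and 4, a little lower in the summed sample, and at 5.17, 6.91 and 2.43 in BM NK cells. In each of the 3 genes every fetal sample was above every adult sample, and BM NK cells came closest. AL 7R- ILC1s held almost none of Hist1h2ap: 366 counts in FL G1-ILCs stood against 2 there, a ratio of CPM of 212 with a 95% counting interval of 58.3 to 1757. The difference from BM NK cells was the smallest, with log2 fold changes of 1.68 (SE 0.58, adjusted p = 0.0253) for Hist1h2ag, 1.80 (0.58, 0.0168) for Hist1h2ao and 2.17 (0.60, 0.00591) for Hist1h2ap. Of these, Hist1h2ag lost its call without BM NK cells replicate 3 (1.25, adjusted p = 0.126), FL G1-ILCs replicate 1 (0.0507) or replicate 4 (0.110), and with the replicate number as a block (0.0618), and Hist1h2ao without BM NK cells replicate 1 (0.0571) or 3 (0.0887). Only 23.8% of the 100-base windows of Hist1h2ag, 7.35% of Hist1h2ao and 7.83% of Hist1h2ap are unique, so reads of these H2A genes may have been exchanged among them and their untested copies. The small predicted genes Gm44486, Gm19658 and Gm44466 overlap them.

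Hist1h2bj (chr13:22043214-22043676, plus strand), an H2B gene, was at 12.3, 14.3 and 17.0 CPM in FL G1-ILCs. It was at 4.96, 2.87, 5.34 and 4.43 in LPL ILC1s, at 3.50, 2.66 and 1.82 in BM NK cells, at 2.35 and 2.40 in AL NK cells and at most 1.80 in the samples of the other 4 groups. The fetal samples did not overlap any other group. The log2 fold change was 5.77 (SE 0.60, adjusted p = 1.17e-08) against AL 7R- ILC1s and 1.72 (0.45, 0.00216) against LPL ILC1s.

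Per kilobase of exon, these genes also led the fetal profile: Hist1h1b stood at 74.9 CPM per kb, Hist1h2ae at 60.3, Hist1h2ag at 48.8, Hist1h2ap at 45.5, Hist1h2ao at 38.5 and Hist1h2bj at 31.4. BM NK cells had Hist1h2ag (15.1 CPM per kb), Hist1h1b (14.6) and Hist1h2ao (11) at the head of their order. The other adult groups were led by other members, AL 7R- ILC1s by Hist3h2ba (17) and Hist1h1c (12), and LPL ILC1s and SG G1-ILCs by Hist1h1c (213 and 112).

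The other H1 genes split from Hist1h1b. Hist1h1d was at 11, 13.9 and 12.8 CPM in FL G1-ILCs and Hist1h1e at 35.0, 46.3 and 43.7, and both were higher there than in the 5 groups of adult liver and bone marrow, by log2 fold changes of 2.58 to 3.31 for Hist1h1d and 1.58 to 2.83 for Hist1h1e. Both were called higher still in LPL ILC1s, Hist1h1e by a log2 fold change of FL G1-ILCs against LPL ILC1s of -1.18 (adjusted p = 8.44e-05) and Hist1h1d by -1.20, a call lost with library totals (0.0638), with no filter on low counts (0.0572) and without FL G1-ILCs replicate 1 (0.0539). Hist1h1c was at 16.5 to 28.3 CPM in FL G1-ILCs and 10.4 to 21.9 in the adult liver and bone marrow. It was called higher in FL G1-ILCs in 3 of those 5 comparisons, with log2 fold changes of 0.82 (SE 0.20, adjusted p = 0.00208) against AL 7R+ ILC1s, 0.80 (0.20, 0.00306) against BM NK cells and 0.99 (0.21, 0.000403) against BM iILC1s. Against AL 7R- ILC1s (0.34, 0.19, 0.150) and AL NK cells (0.33, 0.23, 0.271) it was not called. Exons of Hist1h1e share 25.7% of their bases with Hist1h2be and the predicted gene Gm11398, so its counts are uncertain to that extent.

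Some low members also differed in FL G1-ILCs, with few counts behind them. Hist1h2ak held 44 counts in FL G1-ILCs against 1 in AL 7R+ ILC1s (ratio of CPM 42.7, counting interval 7.28 to 1726) and Hist1h3a 52 against 2 (25.3, 6.65 to 214). Hist1h2ai held 40 counts in FL G1-ILCs against 2 in BM NK cells (17.7, 4.59 to 151). Such low members can pass the filter only through the groups where they are high, so their direction adds nothing to that of the abundant H2A genes. The size of these changes is known only within these wide intervals.

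The member that was lower in FL G1-ILCs throughout, Hist3h2a (chr11:58954685-58956830, plus strand), codes for an H2A outside the large cluster. It was at 3.74, 7.96 and 6.09 CPM in FL G1-ILCs, at 21.4, 19.4, 22.0 and 18.8 in AL 7R- ILC1s and at 20.9 and 29.8 in SG G1-ILCs. In BM NK cells, where it came closest, it was at 9.84, 8.85 and 14.2. Every fetal sample was below every adult sample. The log2 fold change was -1.77 (SE 0.27, adjusted p = 7.06e-06) against AL 7R- ILC1s and -2.08 (0.31, 4.41e-06) against SG G1-ILCs. It was -0.87 (0.29, 0.0204) against BM NK cells, where the call was lost without BM NK cells replicate 3 (adjusted p = 0.132) or FL G1-ILCs replicate 1 (0.131), with the replicate block (0.0547) and with no filter on low counts (0.163). Against BM iILC1s it was lost without FL G1-ILCs replicate 1 (0.0883) or BM iILC1s replicate 3 (0.0516) and with no filter (0.133). Its exons share 33.0% of their bases with Gm44313 and Trim17. Its neighbour Hist3h2ba, an H2B gene, was higher in FL G1-ILCs than in 5 of the 7 adult groups, and 3 of those calls, against AL 7R+ ILC1s, BM iILC1s and SG G1-ILCs, were lost without FL G1-ILCs replicate 4 (adjusted p = 0.132, 0.0757 and 0.116).

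A pair of H4 genes was called lower in FL G1-ILCs than in 5 of the 7 groups each. Of these calls, that of Hist2h4 against BM iILC1s was lost with no filter (adjusted p = 0.0984) and without BM iILC1s replicate 1 (0.0678) or 3 (0.129) or FL G1-ILCs replicate 1 (0.0592) or the summed sample (0.168), and that of Hist1h4n against AL 7R- ILC1s with no filter (0.0507). Hist2h4 was at 0.374, 0 and 0.435 CPM in FL G1-ILCs against 0.746, 3.37, 6.51 and 6.03 in AL 7R- ILC1s (log2 fold change -3.96, SE 0.84, adjusted p = 0.000365) and 4.67, 4.88, 4.07 and 5.54 in LPL ILC1s (-4.15, 0.84, 0.000149). Hist1h4n was at 1.12, 1.45 and 0.869 CPM in FL G1-ILCs against 19.2, 13.5, 18 and 10.2 in LPL ILC1s (-3.68, 0.49, 3.84e-07) and 5.59 and 3.84 in AL NK cells (-2.0, 0.54, 0.00460, but 0.0766 without AL NK cells replicate 1). The fetal samples were below all of these. Members of a class thus did not move as one, since the H4 gene Hist1h4i and most tested H2A genes were higher in FL G1-ILCs and these H4 genes and Hist3h2a were lower.

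**Figure D4:**
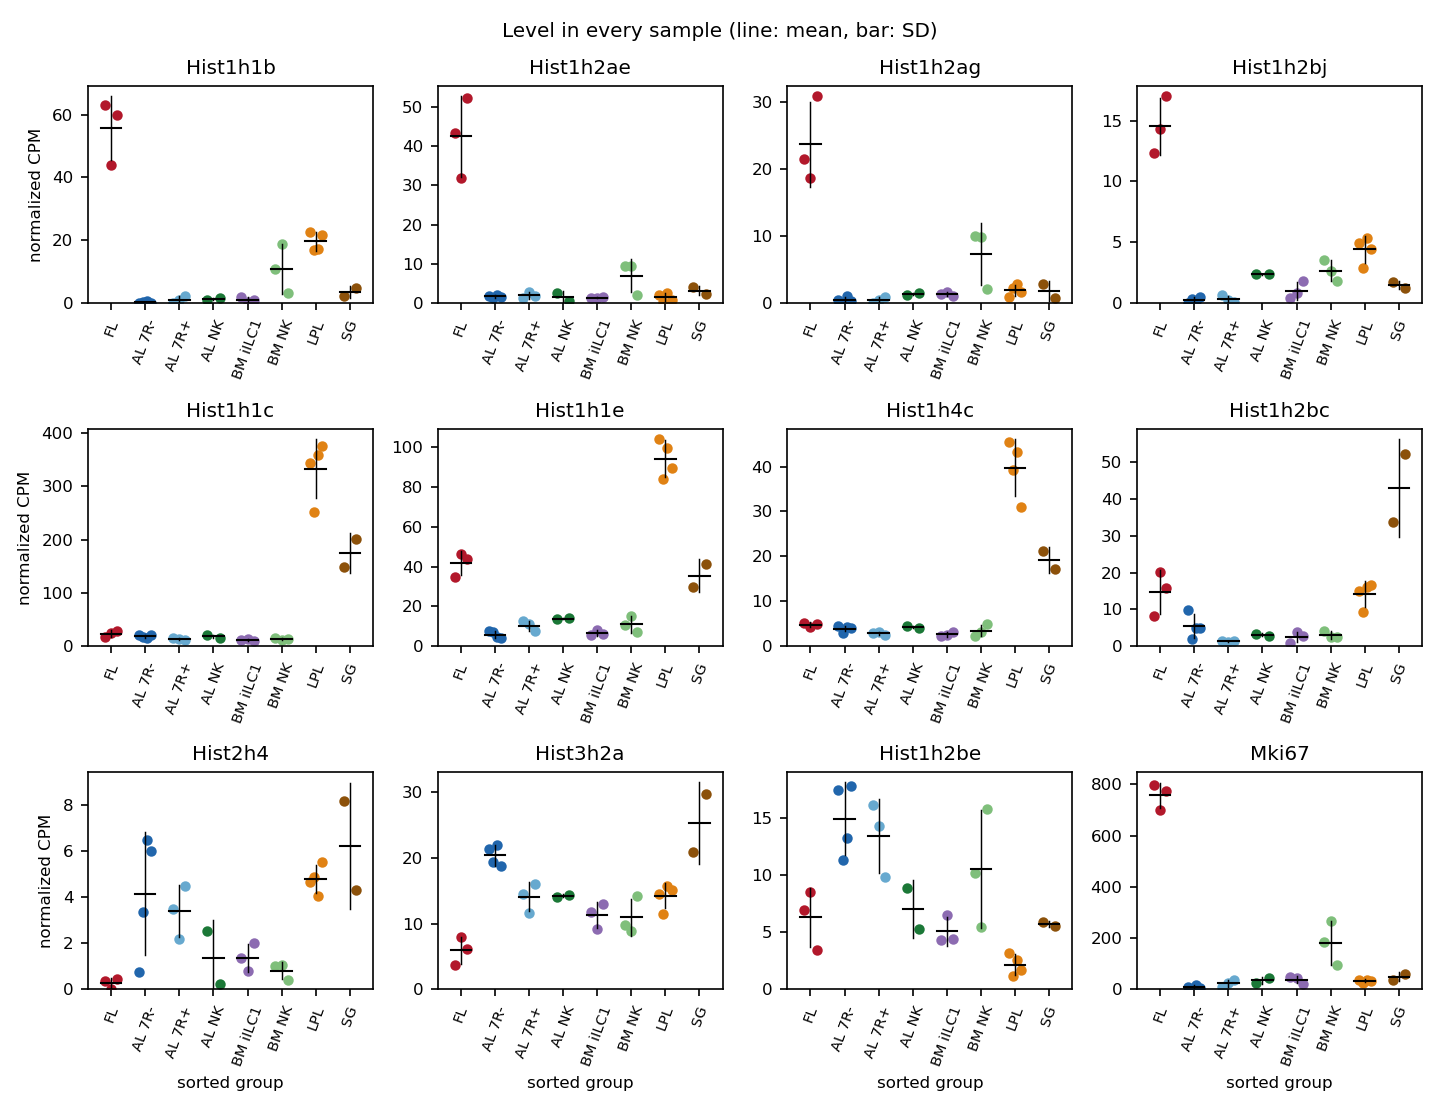
Normalized CPM (vertical axis, from 0, a scale of its own in each panel) of 11 members and of Mki67 in each sample of the 8 groups (horizontal axis). Points are samples, lines the group means and bars the SD. Hist1h1b, Hist1h2ae, Hist1h2ag and Hist1h2bj are high in the fetal samples like Mki67 (701 to 796 CPM), while Hist1h1c and Hist1h4c are high in LPL ILC1s and SG G1-ILCs, where Mki67 is at 24.7 to 61.7 CPM.

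LPL ILC1s and SG G1-ILCs were compared with adult liver ILC1s. By the study's methods, small intestine and salivary gland were digested with collagenase D and DNase I. Fetal and adult liver were dissociated mechanically, and marrow was flushed. Tissue and cell preparation can therefore not be told apart in comparisons of LPL ILC1s or SG G1-ILCs with the other groups. LPL ILC1s had 16 members higher and 2 lower than AL 7R+ ILC1s, beside 24.8% of all genes higher and 26.2% lower, with a median log2 fold change of 1.57 over the members and -0.02 over all genes. Scaled by library totals alone, the median of all genes in this comparison was -0.48, the share of calls that were higher went from 48.6% to 24.5%, and 12 members were higher and 2 lower. SG G1-ILCs had 13 higher and 2 lower than AL 7R- ILC1s (17.8% and 14.6% of all genes), with a median of 1.42, but 8 or 7 calls in all without SG G1-ILCs replicate 1 or 2. Both comparisons with SG G1-ILCs were chosen after the data were seen.

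Called higher in both were Hist1h1b, Hist1h1c, Hist1h1d, Hist1h1e, Hist1h2bc, Hist1h2bj, Hist1h4c, Hist1h4n and Hist4h4, which are all 4 tested linker histone genes, 2 H2B genes and 3 H4 genes. The share of all genes called higher in both is not given here, so their number is a description. No H2A gene was called higher in both. Hist1h2ag and Hist1h2ai were called higher in LPL ILC1s alone, and Hist1h2ak, Hist1h2ap and Hist2h2ac in SG G1-ILCs alone. The call of Hist1h2ap in SG G1-ILCs was lost without AL 7R- ILC1s replicate 2 or 3 and without SG G1-ILCs replicate 1 or 2. That of Hist1h2ak was lost without SG G1-ILCs replicate 1, and that of Hist2h2ac in most leave-one-out fits. Hist1h2be and Hist2h2be, a pair of H2B genes, were called lower in both.

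Hist1h1c (chr13:23738808-23740367, plus strand) showed the largest levels of any member. It was at 344, 252, 359.6 and 376 CPM in LPL ILC1s and at 149 and 201 in SG G1-ILCs. In the other 18 samples it was between 10.4 and 28.3. The 3 ranges did not overlap. The log2 fold change was 4.65 (SE 0.20, adjusted p = 1.98e-16) for LPL ILC1s against AL 7R+ ILC1s, 3.25 (0.19, 1.44e-13) for SG G1-ILCs against AL 7R- ILC1s and 0.92 (0.19, 0.000284) for LPL ILC1s against SG G1-ILCs. FL G1-ILCs were lower than LPL ILC1s by a log2 fold change of -3.83 (0.19, 2.10e-15). Of its 100-base windows, 94.9% are unique, and no annotated gene overlaps it.

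Hist1h1e was at 104, 84.0, 99.4 and 89.5 CPM in LPL ILC1s and at 29.6 and 41.4 in SG G1-ILCs, against 12.4, 11 and 7.6 in AL 7R+ ILC1s and 7.46, 6.91, 4.77 and 4.27 in AL 7R- ILC1s. The log2 fold changes were 3.21 (SE 0.26, adjusted p = 6.52e-11) for LPL ILC1s and 2.60 (0.27, 1.92e-08) for SG G1-ILCs. Hist1h1d rose from 0.662 to 1.86 CPM in AL 7R+ ILC1s to 24.8 to 33.0 in LPL ILC1s (4.34, 0.50, 5.50e-08) and stood at 14.7 and 14.4 in SG G1-ILCs. Hist1h1b, already shown above, was called in LPL ILC1s (3.99, 0.62, 6.53e-06). Its call in SG G1-ILCs (3.79, 0.92, 0.00213) was lost without SG G1-ILCs replicate 2 (0.0774). The tested H1 genes thus rose together in LPL ILC1s, while of the H2A genes Hist1h2ag and Hist1h2ai were called higher and Hist1h2ae (-0.41, 0.59, 0.591) and Hist1h2ap (0.50, 0.73, 0.591) were not called. The call of Hist1h2ag was lost with library totals (0.125), with no filter (0.0928), with the replicate block (0.0687) and in most leave-one-out fits, among them those without AL 7R+ ILC1s replicate 1 (0.152) or LPL ILC1s replicate 3 (0.116).

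Among the H4 genes, Hist1h4c (chr13:23697635-23698454, minus strand) was at 45.5, 39.3, 43.2 and 31.0 CPM in LPL ILC1s and at 21.2 and 17.2 in SG G1-ILCs. In the 18 other samples it was at 2.16 to 5.24, so that no sample lay between. The log2 fold change was 3.81 (SE 0.31, adjusted p = 7.26e-11) for LPL ILC1s against AL 7R+ ILC1s and 2.28 (0.30, 8.62e-07) for SG G1-ILCs against AL 7R- ILC1s. Hist1h4n and Hist4h4 were also called in both comparisons, and Hist1h4d, Hist1h4h, Hist1h4i and Hist1h4m in the first of them, and whether the comparisons differ was not tested. Hist1h4h, Hist1h4i and Hist1h4m lost their calls in LPL ILC1s both with library totals and with no filter on low counts (Hist1h4i adjusted p = 0.0595 and 0.135). With no filter Hist1h4n lost its call in SG G1-ILCs (0.114), which was also lost without either library of SG G1-ILCs (0.105 and 0.0721) and with the replicate block (0.0574). Without SG G1-ILCs replicate 2 the call of Hist4h4 in SG G1-ILCs was lost (0.0547), and without replicate 1 that of Hist1h2bj (0.0996).

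Among the H2B genes, Hist1h2bc (chr13:23684199-23692908, plus strand) was at 33.6 and 52.3 CPM in SG G1-ILCs and at 14.9, 9.18, 16 and 16.6 in LPL ILC1s, against 1.44, 1.10 and 1.38 in AL 7R+ ILC1s and 9.94, 2.02, 5.06 and 5.03 in AL 7R- ILC1s. It was higher in SG G1-ILCs than in AL 7R- ILC1s (2.98, SE 0.44, adjusted p = 5.47e-06) and lower in LPL ILC1s than in SG G1-ILCs (-1.60, 0.43, 0.00463, but 0.107 without SG G1-ILCs replicate 2). Hist1h2be took the other direction. It was at 3.21, 1.15, 2.54 and 1.66 CPM in LPL ILC1s against 16.1, 14.3 and 9.79 in AL 7R+ ILC1s (-2.62, 0.41, 7.04e-06). In SG G1-ILCs it was at 5.92 and 5.56 CPM, below all 4 samples of AL 7R- ILC1s, at 11.3 to 17.8 (-1.37, 0.45, 0.0216), but that call was lost without SG G1-ILCs replicate 1 (0.114) or 2 (0.140). Hist2h2be (chr3:96221119-96223738, plus strand) was at 6.12, 0.860, 2.54 and 3.88 CPM in LPL ILC1s against 12.4, 9.05 and 9.10 in AL 7R+ ILC1s (-1.60, 0.42, 0.00274). Its call in SG G1-ILCs was lost in most of the leave-one-out fits, among them those without SG G1-ILCs replicate 1 (0.166) or 2 (0.222), and with the replicate block (0.0718).

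Compared with each other, LPL ILC1s had 4 members higher and 4 lower than SG G1-ILCs (16.8% and 18.7% of all genes), and 5 in all without SG G1-ILCs replicate 1 or 2. Hist1h1b, Hist1h1c, Hist1h1e and Hist1h4c were higher in LPL ILC1s, and Hist1h2ak, Hist1h2bc, Hist1h2be and Hist3h2a lower. Among these 8, Hist1h1c and Hist1h1e kept their call in every alternative fit. Asking also for a log2 fold change over 1 left 6 of the 8, without Hist1h1c.

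**Figure D5:**
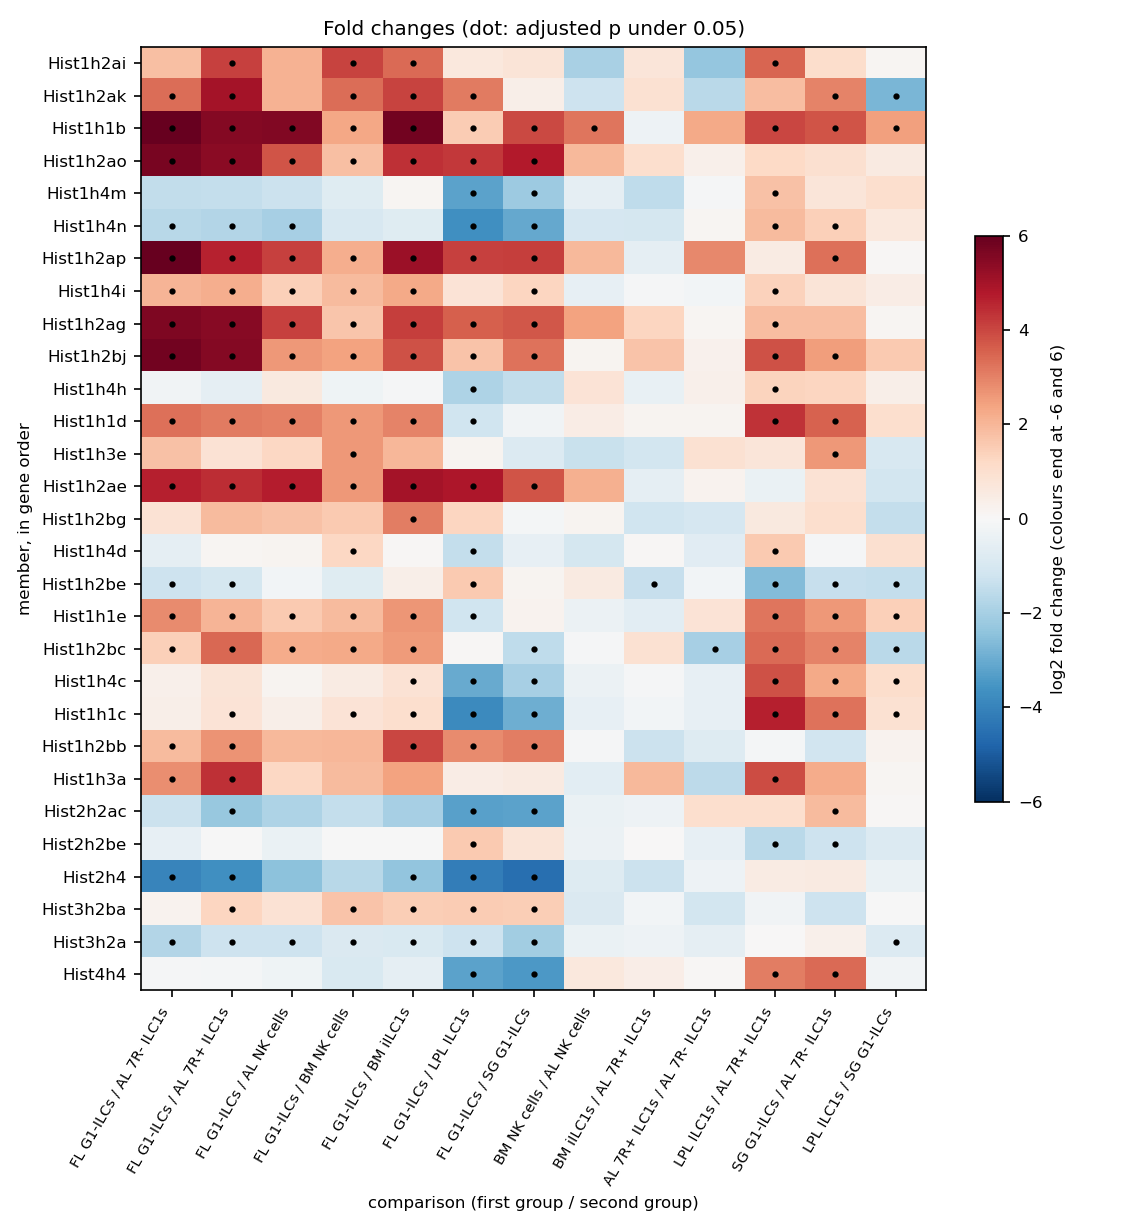
Log2 fold change in colour of the 29 tested members (vertical axis, gene order) in 13 comparisons (horizontal axis, first group over second), red for higher and blue for lower in the first group, with a dot for an adjusted p under 0.05 in edgeR's quasi-likelihood test. Colours end at -6 and 6, and 2 values of Hist1h1b and Hist1h2ap against AL 7R- ILC1s (7.75 and 7.47) lie beyond. The 6 members that are higher, with dots, in all 7 fetal columns and the columns of LPL ILC1s and SG G1-ILCs against the liver are the main patterns. Hist3h2a also has dots in all 7 fetal columns, as lower.

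Among NK cells, the tissue made little difference that passed the test. Of the 29 members, 1 was higher and 0 lower in BM NK cells than in AL NK cells (1.01% and 1.57% of all genes), namely Hist1h1b, at 10.8, 18.8 and 3.04 CPM against 0.902 and 1.44 (log2 fold change 3.23, SE 0.78, adjusted p = 0.0214). The call was lost without BM NK cells replicate 2 (0.131), AL NK cells replicate 1 (0.279) or replicate 2 (0.151), and without BM NK cells replicate 3 there were 3 calls. Hist1h2ae (2.12, 0.65, 0.0814) and Hist1h2ag (2.43, 0.78, 0.101) missed the threshold in edgeR and were called by DESeq2, which called 3 members. BM NK cells replicate 3 was the lowest of its group for Hist1h1b, Hist1h2ae, Hist1h2ag, Hist1h2ao and Hist1h2ap. In that library Mki67, a marker of proliferating cells, stood at 95.1 CPM against 186 and 265 in the others, and the summed level of 26 S phase genes at 1589 against 2868 and 3479.

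Among ILC1s, BM iILC1s had 0 members higher and 1 lower than AL 7R+ ILC1s (4.23% and 3.84% of all genes). This was Hist1h2be, at 4.32, 6.48 and 4.39 CPM against 16.1, 14.3 and 9.79 (-1.39, SE 0.40, adjusted p = 0.0299), a call lost without AL 7R+ ILC1s replicate 1 (0.117) or 2 (0.0836) or BM iILC1s replicate 1 (0.121) or 3 (0.111). The effect of tissue in NK cells minus that in ILC1s, tested as an interaction chosen after the data were seen, called 0 of the 29 members in edgeR (1.35% and 1.74% of all genes higher and lower), with 4 at an unadjusted p under 0.05, and 2 in DESeq2. Within the adult liver, AL 7R+ ILC1s had 0 members higher and 1 lower than AL 7R- ILC1s (3.06% and 2.22% of all genes). This was Hist1h2bc (-2.01, 0.50, 0.0134), with the values given above, and the call was lost without AL 7R- ILC1s replicate 1 (0.0721) or AL 7R+ ILC1s replicate 2 (0.0625) or 3 (0.0682).

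Most members lie together. Of the 67 annotated genes, 54 are in a stretch of chromosome 13 (chr13:21715763-23934851), 10 on chromosome 3, 2 on chromosome 11 and 1 on chromosome 6. The stretch on chromosome 13 has a left block of 23 members (21715763 to 22043676) and a right block of 31 (23531050 to 23934851). Of the 6 members higher in FL G1-ILCs than in all adult groups, 5 were among the 10 tested members of the left block and 1, Hist1h2ae, among the 13 of the right block. Higher in both LPL ILC1s and SG G1-ILCs were 3 of those 10 and 5 of those 13. Shares of all genes with these patterns are not given here, and the difference between the blocks was not tested.

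Neighbours did not always move together. Hist1h2ag and Hist1h2bj, which start 269 bases apart in opposite directions, were both higher in FL G1-ILCs than in all 7 adult groups. Hist1h4n and Hist1h2ap lie on the same strand with 829 bases between them, and the first was called lower in FL G1-ILCs in 5 of the 7 comparisons and the second higher in all 7. Hist1h2ao and Hist1h4m are 801 bases apart on the same strand, the first higher in all 7 and the second, named here for its position, lower in 2. Hist1h1c and Hist1h4c, both high in LPL ILC1s, are 40353 bases apart.

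Promoter windows of 250 bases before to 50 after the start were matched by gene for 62 members, from RefSeq on GRCm38.p6. Hist1h2ao and Hist1h2ap were matched to the same RefSeq gene, so its window is counted for both. On either strand, CCAAT was found in 53 of them (85.5%), against 41.1% of 27025 genes with such a window, TATAA in 50 (80.6%) against 28.0%, and the octamer ATTTGCAT in 14 (22.6%) against 1.97%. The octamer was in 7 of 18 H2A and 7 of 16 H2B windows, and in 0 of those of H1, H3 and H4. CCAAT was in all windows of H1, H2A, H2B and H3 but in 3 of 12 of H4. None of these motifs contains another, and a match is a description and not a binding site.

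The windows of Hist1h2bj, a member of the fetal pattern, and of Hist1h1c, the leading member in LPL ILC1s, are printed next for comparison, both on the plus strand (chr13:22042948-22043247 and chr13:23738557-23738856). The capitals mark CCAAT and TATAA, which on the other strand read ATTGG and TTATA. Hist1h2bj has 5 CCAAT and 2 TATAA matches, and Hist1h1c has 1 CCAAT. Both TATAA matches are on the other strand, at -210 and -134 bases from the start. The search took exact letters only, so near forms such as TATATA, which the window of Hist1h1c holds, were not counted.

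Hist1h2bj: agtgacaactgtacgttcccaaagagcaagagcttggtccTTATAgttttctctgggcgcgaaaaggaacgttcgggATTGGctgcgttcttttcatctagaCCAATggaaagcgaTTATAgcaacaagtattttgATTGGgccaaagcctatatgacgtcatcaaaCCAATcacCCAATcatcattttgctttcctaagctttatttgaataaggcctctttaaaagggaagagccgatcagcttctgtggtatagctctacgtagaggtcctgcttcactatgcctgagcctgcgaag
Hist1h1c: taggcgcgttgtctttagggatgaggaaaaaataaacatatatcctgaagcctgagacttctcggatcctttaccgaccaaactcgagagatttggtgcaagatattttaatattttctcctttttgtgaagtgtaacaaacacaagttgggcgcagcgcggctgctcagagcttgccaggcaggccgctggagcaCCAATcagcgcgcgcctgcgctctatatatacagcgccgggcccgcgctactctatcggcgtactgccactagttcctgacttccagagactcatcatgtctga

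The annotated length after the stem-loop was set beside these patterns. In the 6 members higher in FL G1-ILCs than in all adult groups, 5 had a stem-loop and the longest annotated transcript ended a median of 23 bases after it (3 to 151). In the 7 members that were higher in both LPL ILC1s and SG G1-ILCs but not in FL G1-ILCs against all 7, 6 had one, with a median of 996 bases after it (31 to 4884). Over all tested members with a stem-loop the median was 162 bases. Hist1h4n, with 31 bases, and Hist1h2ae, with 151, lie away from their sets' medians, and the difference was not tested.

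The genes around replication-dependent histones were counted in fixed lists. Of all genes, 19.4% to 31.8% were called higher in FL G1-ILCs across the fetal comparisons and 14.3% to 27.1% lower. In LPL ILC1s against AL 7R+ ILC1s these shares were 24.8% and 26.2%, and in SG G1-ILCs against AL 7R- ILC1s 17.8% and 14.6%. Of 26 S phase genes, all 26 were higher in FL G1-ILCs when set against AL NK cells, BM iILC1s or either liver ILC1 group, and 25 when set against SG G1-ILCs, LPL ILC1s or BM NK cells. Their summed level was 7641 to 8678 CPM in the samples of FL G1-ILCs, 1589 to 3479 in BM NK cells, 1173 to 1597 in LPL ILC1s, 1214 to 1270.2 in SG G1-ILCs and 874 to 1045 in AL 7R- ILC1s. In LPL ILC1s against AL 7R+ ILC1s, 3 of the 26 were higher and 2 lower (median log2 fold change 0.18), and in SG G1-ILCs against AL 7R- ILC1s 8 were higher and 1 lower (0.28). So the list was far higher in FL G1-ILCs, while in LPL ILC1s, whose summed histone level was above the fetal one, it lay near that of AL NK cells, at 1372 and 1379. Mki67 was at 796, 701 and 772 CPM in FL G1-ILCs and at 37.9, 24.7, 37.9 and 33.0 in LPL ILC1s.

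Over the 8 group means, the members whose log2 level followed the S phase sum most closely were Hist1h2ap (Pearson's r 0.994), Hist1h2ao (0.991), Hist1h2ag (0.980) and Hist1h2ae (0.969), while Hist1h1c had -0.126 and Hist3h2a -0.822. By rank (Spearman's correlation), Hist1h2ap and Hist1h2ao had 0.976 and Hist1h2ag 0.929, but Hist1h2ae only 0.476. These 8 points rest mainly on the fetal group and are a description.

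Of 20 histone chaperones, which carry histones to and from DNA, 14 to 16 were higher in FL G1-ILCs in the 7 comparisons and 0 to 2 lower. In LPL ILC1s against AL 7R+ ILC1s, 7 were higher and 5 lower, beside 24.8% of all genes higher and 26.2% lower. Of 18 genes for the transcription and processing of histone mRNA, 9 to 12 were higher in FL G1-ILCs and 0 to 2 lower, and 3 were higher and 6 lower in LPL ILC1s against AL 7R+ ILC1s. Neither list lay far from the shares of all genes in that comparison. Slbp, which codes for the stem-loop binding protein, was at 766, 678 and 704 CPM in FL G1-ILCs and 715, 709, 788 and 773 in LPL ILC1s, ranges that overlapped (log2 fold change -0.06, SE 0.08, adjusted p = 0.539). In AL 7R+ ILC1s it was at 305, 290.2 and 341 CPM, below both (LPL ILC1s against it 1.26, 0.08, 1.41e-12), and in AL 7R- ILC1s at 304 to 337 (FL G1-ILCs against it 1.18, 0.08, 7.32e-12). Npat, a coactivator of histone genes, had a log2 fold change of 0.50 (0.24, 0.0953) in FL G1-ILCs against AL 7R- ILC1s.

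Histone variants outside the replication-dependent clusters, most of them made throughout the cell cycle, were listed as 12 genes, of which 10 were tested. In FL G1-ILCs 4 (against LPL ILC1s) to 8 (against BM iILC1s) of them were higher and 0 to 2 lower. In LPL ILC1s 8 were higher than in AL 7R+ ILC1s and 0 lower (24.8% and 26.2% of all genes). A pair of them was named after their values were seen. H3f3b, which codes for the H3.3 variant, was at 11940, 11735, 13618 and 12412 CPM in LPL ILC1s and 3109 and 3252 in SG G1-ILCs, against 726 to 1404 in the other 18 samples (LPL ILC1s against AL 7R+ ILC1s 3.99, SE 0.09, adjusted p = 2.12e-22). H2afx, which is known to give both a stem-loop mRNA without a poly(A) tail and a polyadenylated one, was at 637, 684 and 672 CPM in FL G1-ILCs and at most 335 in any adult sample (FL G1-ILCs against BM NK cells 1.39, 0.20, 5.40e-06). H2afx was thus highest in the group where most tested H2A members were, though not Hist2h2ac or Hist3h2a. H3f3b was highest in the group where Hist1h1c was.

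Markers of other cells that a gate could hold moved with some groups, and their part in the results was not tested. The myeloid list (15 genes) was at 806 and 1024 CPM in SG G1-ILCs, where Ctsg, S100a8, S100a9 and Cebpe were at 0, at 314 to 1656 in BM iILC1s and at 81.3 to 352 in the other samples. The erythroid list (11 genes in the table) was at 62.5 to 269.6 CPM in FL G1-ILCs, 21.4 to 212 in BM iILC1s, 59.0 to 88.9 in LPL ILC1s and 7.95 to 423 in AL 7R- ILC1s. It was lower elsewhere, at most 38.6 in AL NK cells, 15.3 in AL 7R+ ILC1s, 13.8 in SG G1-ILCs and 22.3 in BM NK cells. Of its 9 tested genes, 8 were higher in FL G1-ILCs against SG G1-ILCs, AL 7R+ ILC1s, LPL ILC1s (with 1 lower) and BM NK cells, and 3 or 4 against the other 3 groups. The hepatocyte list (8 genes) was at 97.1 to 161 CPM in LPL ILC1s, of which Trf alone held 127 on average, against at most 29.0 elsewhere, with Alb at 1.51 CPM on average in FL G1-ILCs and 0.703 in LPL ILC1s. The B cell list (10 genes) was at most 63.0 CPM. The T cell list (11 genes) ran from 100.5 to 123 CPM in AL NK cells to 2295 to 2897 in AL 7R- ILC1s, with Cd3e, part of the gate that excluded T cells, at 147 CPM on average in BM iILC1s and at 0 in AL NK cells. The study counts Cd3g, a gene of this list, as an ILC1 signature gene high in FL G1-ILCs, both liver ILC1 groups and BM iILC1s. The list is therefore not specific to T cells. The list of the sorted cells (Klrb1c, Ncr1, Tbx21, Il2rb and Nkg7) was present in every sample, but lowest in FL G1-ILCs, at 7106 to 7561 CPM against 8637 to 12068 in the adult samples. Of these 5 genes, 3 or 4 were called lower in FL G1-ILCs against each group of the adult liver and bone marrow, 3 against SG G1-ILCs and 2 against LPL ILC1s, and 1 was called higher against BM iILC1s and SG G1-ILCs.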

How the data were processed

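RNA of sorted mouse cells was sequenced in 25 libraries of 8 groups, given by the labels. Per the labels and the study's methods, cDNA was made with a SMART-seq HT kit, reads were cleaned with fastp 0.23.0, aligned to mm10 with HISAT2 2.1.0 and summed per gene with featureCounts of Subread 1.6.5. Settings for strand and for reads with several places are not given in the sources used here. The authors deposited raw counts, in whole reads per Ensembl gene, with totals of 2302643 to 7995906 per library. The median total was 4603579, so 1 count is worth well under 1 CPM and members of a few counts are known only coarsely. Intervals cover counting error only.

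The 65 members were matched through GENCODE vM21. The members and the lists were chosen with earlier results of these data known. FL G1-ILCs replicates 2 and 3 were summed. Counts were scaled by TMM, filtered (filterByExpr, minimum count 10) and tested in 1 quasi-likelihood fit of 8 groups in edgeR 4.0.16 under R 4.3.3, with Benjamini-Hochberg adjustment over 14123 genes, so that groups of 2 libraries take their spread from all groups. Named are, per class, up to 4 members with the largest mean level and, per comparison, up to 4 called members per direction with the largest change, with Mki67. Other members (such as Hist1h4h and Hist1h4m) and list genes were named after their values were seen. Alternatives were DESeq2 1.42.0, RLE size factors, library totals, no filter, all 25 libraries, the replicate number as a block, and leaving out each library. A stricter call that also asked for a log2 fold change over 1 was counted too. The procedure was tested on simulated data.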

Additional observations from a re-analysis of the deposited data

Results flagged for a closer look

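In groups of 4 samples, 68 sets of values were examined for a sample set apart from the other 3, and 5 were found. Chance marks about 1 set in 20, so 5 of 68 is near what chance gives. The summed level of all members in LPL ILC1s was lowest in replicate 2, at 535 CPM against 659 to 684 in the others. The summed H1 level in LPL ILC1s was lowest in the same replicate, at 389 CPM against 496 to 515. In AL 7R- ILC1s the summed H3 level was lowest in replicate 2, at 0.674 CPM against 2.75 to 2.98. Hist1h3a in AL 7R- ILC1s was highest in replicate 3, at 0.868 CPM against 0.169 to 0.251, and Hist1h2ap in AL 7R- ILC1s was highest in replicate 4, at 0.503 CPM against 0 in the others, which are levels of a few counts.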

How the results depend on the processing

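Of 160 called changes of named members, the alternatives ended 2 (DESeq2), 1 (RLE size factors), 1 (all 25 libraries), 5 (library totals), 24 (no filter on low counts) and 12 (replicate block), and none was reversed. Leaving out each library in turn kept 117 of the 160 in every case.

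The number of members called in BM NK cells against AL NK cells was 3 with DESeq2 and 2 with no filter, in AL 7R+ ILC1s against AL 7R- ILC1s 2 and 2, in LPL ILC1s against SG G1-ILCs 5 with no filter, and for the effect of tissue in NK cells minus that in ILC1s 2 and 1. The cause was not tested. At 5 counts in place of 1, the median number of members detected per library was 23. Scaled by library totals, the summed level was 90.0 CPM in BM iILC1s and 499 in LPL ILC1s.

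Library totals also moved the share of all called genes that were higher, from 52.9% to 42.5% in FL G1-ILCs against AL 7R+ ILC1s, from 57.5% to 43.2% against BM NK cells, from 52.7% to 39.2% against BM iILC1s, from 53.9% to 67.3% against LPL ILC1s, from 39.2% to 57.1% in BM NK cells against AL NK cells, from 54.9% to 41.5% in SG G1-ILCs against AL 7R- ILC1s and from 47.3% to 27.7% in LPL ILC1s against SG G1-ILCs.

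When 1 library was left out, the calls of FL G1-ILCs ran from 14 to 21 against AL 7R- ILC1s, 18 to 24 against AL 7R+ ILC1s, 10 to 13 against AL NK cells, 12 to 19 against BM NK cells, 16 to 22 against BM iILC1s, 22 to 26 against LPL ILC1s and 12 to 19 against SG G1-ILCs. They ran from 0 to 3 in BM NK cells against AL NK cells, 0 to 1 in BM iILC1s against AL 7R+ ILC1s, 0 to 2 in AL 7R+ ILC1s against AL 7R- ILC1s, 15 to 18 in LPL ILC1s against AL 7R+ ILC1s, 7 to 15 in SG G1-ILCs against AL 7R- ILC1s, 5 to 9 in LPL ILC1s against SG G1-ILCs, 0 to 2 for the interaction, 27 to 32 across all 8 groups and 23 to 27 across the adult groups. The summed level ran from 347 to 381 CPM in FL G1-ILCs, 96.4 to 108 in the 7R+ and 124 to 135 in the 7R- ILC1s of the adult liver, 107 to 133 in AL NK cells, 78.6 to 86.1 in BM iILC1s, 119.7 to 142 in BM NK cells, 625 to 675 in LPL ILC1s and 361 to 451 in SG G1-ILCs, and the median number of members detected per library from 41.5 to 42.5.

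Replicate numbers did not pair the libraries, with a mean correlation of deviations of -0.00619 between samples of the same number (-0.0887 to 0.0393) and 3 of 24 samples closest to their own number. With the replicate block, 15 members were called in FL G1-ILCs against AL 7R- ILC1s, 17 in LPL ILC1s against AL 7R+ ILC1s and 10 in SG G1-ILCs against AL 7R- ILC1s.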
